A study of Mus musculus with 30 samples.

Results

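RNA of sorted neurons was compared between PS2APP mice and non-transgenic (non-Tg) littermates in 10 of the 30 libraries of the series. The members were every library whose source label is PS2APP NeuN (5 libraries) or non-Tg NeuN (5 libraries), and all genes in their count tables were described. The mice were 11.5 months old. Cells were sorted from brain by NeuN, the nuclear RNA-binding protein encoded by Rbfox3, and the other 20 libraries hold Gfap+ astrocytes and Cd11b+ myeloid cells from the same genotypes. PS2APP mice carry a human amyloid precursor protein (APP) transgene, driven in the published line by the neuronal Thy1 promoter, and a human presenilin 2 (PSEN2) transgene, driven by the mouse prion promoter. Non-Tg mice carry neither. The labels give no brain region, sex or animal for a library and do not say whether libraries share an animal, so each p-value measures the spread between these libraries.

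APP is cut by beta-secretase and then by gamma-secretase, the protease of which presenilin is the catalytic part, and the peptide released is amyloid-beta. PS2APP mice form amyloid plaques with age, surrounded by reactive astrocytes and microglia. Kcnh7 encodes ERG3, a voltage-gated potassium channel of the ether-a-go-go related (ERG) family that lowers neuronal excitability through a slowly closing current.

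Total counts lay between 4000154 and 6749681 per library, and a count of 3 corresponded to 0.405 to 0.707 CPM (counts scaled to the library total and a TMM factor). The lowest chi-square per degree of freedom between libraries of 1 group was 4.06, so no pair agreed within sampling noise. The sort label held for the markers Meg3 and Rbfox3, while Kcnh7, also taken as a neuron marker, was lower in PS2APP libraries, as given below. On the scale of all 30 libraries Meg3 stood at 14075 to 17680 CPM in non-Tg neurons. It stood at 602 to 1209 CPM in non-Tg Gfap+ and at 313 to 531 CPM in non-Tg Cd11b+ libraries. On the scale of the 10 neuron libraries Meg3, a neuronal long noncoding RNA, averaged 19437 ± 1696 CPM in the non-Tg group and 21037 ± 2314 CPM in PS2APP libraries (SD, n = 5 each). Rbfox3 averaged 139 ± 32.8 and 198 ± 55.5 CPM. All 10 libraries held counts of the 4 Y-linked genes looked at, which does not show the sex of each library.

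PS2APP replicate 5 stood apart from the other neuron libraries, and the calls and the main values below are therefore given for 10 libraries and for the 9 without it. Where a value names no number of libraries in its sentence or the sentence before, it is from all 10. On the first principal component, which held 58.6% of the variance, its score was 89.8, the next PS2APP library (replicate 3) had 48.2, and non-Tg libraries lay between -54.7 and 15.8. This component moved with the GC content of genes (Spearman correlation of GC content with gene loadings 0.516 over 13684 genes, which share these libraries). In PS2APP replicate 5, the GC-richest of 5 classes of genes lay 0.997 above the GC-poorest in median log2 deviation from the gene means, against -0.718 in non-Tg replicate 3. The same trend ran through the comparison: by GC class (5 of equal size, poorest to richest) the median log2 fold change went from -0.28 through -0.13, 0.04 and 0.17 to 0.30 in 10 libraries, and from -0.20 to 0.18 in 9. By genomic span, in 5 classes, the medians stayed between -0.04 and 0.06. Of the genes tested, 85.2% had a GC value in 10 libraries and 84.9% in 9.

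**Figure D1:**
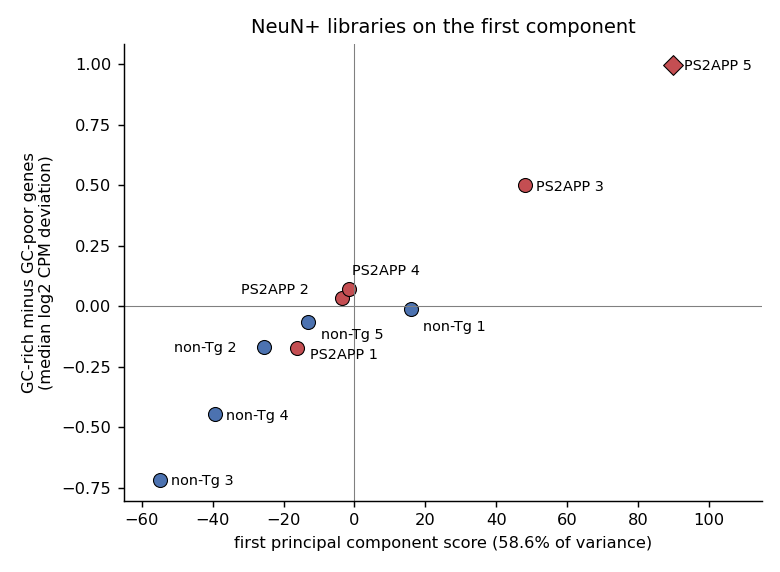
Each point is 1 NeuN+ library (blue, non-Tg; red, PS2APP; diamond, PS2APP replicate 5), with its score on the first principal component (horizontal, no unit) and the median log2 CPM deviation of the GC-richest minus the GC-poorest of 5 classes of genes (vertical). PS2APP replicate 5 is farthest out on both axes, at 89.8 and 0.997, and non-Tg replicate 3 is at the other end, at -54.7 and -0.718.

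In PS2APP neurons the transcript of 1 gene, Kcnh7, fell in both fits. With PS2APP replicate 5 left out, Gca, the neighbour of Kcnh7, also fell, and 9 genes rose, among them Arhgap6, Amelx, Thy1 and Gfap. In edgeR's quasi-likelihood test with Benjamini-Hochberg adjustment, 1 of 16064 genes (0.00623%) passed an adjusted p of 0.05 in 10 libraries. In 9 libraries 11 of 16394 genes passed (0.0671%), of which 9 were higher (0.0549%) and 2 lower (0.0122%). With a filter of at least 1 CPM in 5 libraries, 9 of the 11 were called in 9 libraries, 7 higher and 2 lower. The rises not called there passed the main filter on low counts only through the high PS2APP libraries. At an unadjusted p under 0.05 there were 3671 genes in 10 libraries (22.9%) and 2210 in 9 (13.5%, with 6.14% higher and 7.34% lower). The groups did not overlap for 503 genes (3.13%) in 10 libraries, 1.26% higher and 1.87% lower, and for 579 (3.53%) in 9, 1.44% higher and 2.09% lower. In the 9-library comparison 1 library decided the count: without non-Tg replicate 1, 379 genes passed.

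Kcnh7 (chromosome 2, 62693410 to 63184287, GRCm38, minus strand) stood at 230.1, 207, 195, 246 and 222 CPM in non-Tg replicates 1 to 5. In PS2APP replicates 1 to 5 it stood at 81.9, 82.4, 74.8, 73.9 and 72 CPM. Every PS2APP library lay far below every non-Tg library, PS2APP replicate 5 sat with the other PS2APP libraries, and the spread within each group was small. Kcnh7 fell by 1.51 ± 0.11 on the log2 scale in 10 libraries (SE, edgeR adjusted p = 3.6e-05) and by 1.49 ± 0.12 in 9 (edgeR adjusted p = 1.8e-05), and it was called in each leave-one-out fit of both. With a library-specific offset for GC content the fall was 1.13 ± 0.15 in 10 libraries (SE, edgeR adjusted p = 0.0236).

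Gca encodes grancalcin, a calcium-binding protein first described in neutrophils. Its end overlaps that of Kcnh7 by 700 bases on the opposite strand, and since the strand setting of the counting is not given in the sources used here, reads in the overlap cannot be told apart. Gca stood at 27.1, 34.7, 35.8, 26.5 and 33.1 CPM in non-Tg replicates 1 to 5 and at 16.7, 17.2, 10.6, 13.7 and 6.58 CPM in PS2APP replicates 1 to 5. The groups did not overlap, and PS2APP replicate 5 was the lowest library. Gca fell by 1.12 ± 0.17 on the log2 scale in 9 libraries (SE, edgeR adjusted p = 0.0151) and had -1.28 ± 0.22 in 10 libraries (edgeR adjusted p = 0.128). Its call was lost without non-Tg replicate 2, non-Tg replicate 5 or PS2APP replicate 4, with adjusted p up to 0.103 in edgeR, and in 1 fit with all populations (adjusted p = 1).

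The 250 bases before the starts of Kcnh7 and Gca are shown because both transcripts were lower and the genes lie end to end, with their starts at the outer ends of the locus. The sequences are from RefSeq (GRCm38.p6), 5′ to 3′ on the gene's strand, at chr2:63184288-63184537 (minus) for Kcnh7 and chr2:62664077-62664326 (plus) for Gca. Capitals mark matches on either strand to the TATA motif spelled TATAAA, the box spelled CCAAT, the GC box spelled GGGCGG and the cAMP response element spelled TGACGTCA.
Kcnh7: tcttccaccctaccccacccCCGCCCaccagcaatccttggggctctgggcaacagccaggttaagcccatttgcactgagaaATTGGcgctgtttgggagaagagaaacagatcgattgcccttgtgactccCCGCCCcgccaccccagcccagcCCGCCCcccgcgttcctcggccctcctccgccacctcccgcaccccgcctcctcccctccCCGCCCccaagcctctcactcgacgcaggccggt
Gca: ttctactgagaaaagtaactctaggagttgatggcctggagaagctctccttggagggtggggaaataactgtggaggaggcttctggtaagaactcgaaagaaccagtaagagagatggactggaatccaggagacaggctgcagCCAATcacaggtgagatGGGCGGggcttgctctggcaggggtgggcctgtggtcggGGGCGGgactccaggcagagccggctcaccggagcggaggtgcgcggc
The Kcnh7 window had 67.6% GC with 4 GC box matches and 1 CCAAT match, and the Gca window had 59.2% GC with 2 GC box matches and 1 CCAAT match, against a median of 52.0% GC over 27025 promoter windows of the same length. GC box letters were present in 32.9% of those windows, CCAAT in 34.5%, TATAAA in 13% and TGACGTCA in 1.62%, so both windows hold letters that many promoters hold.

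Around Kcnh7, 9 other genes within 1000 kb on either side passed the filter on low counts. In 10 libraries 8 of them had a negative and 1 a positive log2 fold change, where 48.1% of all genes tested were positive (48.7% in 9 libraries), and the same split held in 9. Several of these genes are poor in GC, and with the GC offset Slc4a10 turned positive (0.19 in 10 libraries) and Psmd14 went to -0.33. Fap, a membrane serine protease, stood at 8.47, 6.75, 6.54, 7.80 and 5.05 CPM in non-Tg libraries and at 4.93, 3.53, 3.23, 3.11 and 2.59 CPM in PS2APP libraries. The Fap groups did not overlap, and the difference of -1.0 ± 0.23 (log2, SE) had an edgeR adjusted p of 0.186 (-0.91 ± 0.24 in 9 libraries). Dpp4, a related peptidase, had -0.81 ± 0.26 (-0.62 in 9 libraries) and the proteasome subunit gene Psmd14 had -0.73 ± 0.23 (-0.59 in 9), neither called. Of these 9 genes, Gca alone was called in 9 libraries.

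The noncoding genes Gm34110 and Gm34291, at and beyond the start of Kcnh7, were higher in PS2APP libraries. Gm34110 overlaps the Kcnh7 start by 592 bases and averaged 11.5 ± 1.91 CPM in non-Tg and, without overlap, 18.3 ± 4.94 CPM in the PS2APP group (SD, n = 5 each), and its difference of 0.66 ± 0.20 (log2, SE) had an edgeR adjusted p of 0.186. Gm34291, which lies 46.1 kb beyond that start, was at 0 counts in all 5 non-Tg libraries. In PS2APP replicates 1 to 5 it stood at 3.05, 3.77, 1.71, 2.45 and 0.798 CPM, each above the level of 3 counts in its own library. Gm34291 did not pass the filter on low counts and was called in both comparisons when no filter was used.

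The other channels of the family did not share the fall. Of 8 KCNH genes tested, Kcnh7 was the 1 with an unadjusted p under 0.05 in either direction, and the median log2 fold change of the family was 0.14 in 10 and 0.01 in 9 libraries (-0.05 and -0.09 with the GC offset). Kcnh2 and Kcnh6, which encode the ERG1 and ERG2 channels, had 0.42 ± 0.20 and 0.12 ± 0.24 in 10 libraries (SE, edgeR adjusted p = 0.226 and 0.766) and 0.24 and 0.05 in 9. With the GC offset Kcnh2 had 0.12 and Kcnh6 turned to -0.12 in 10 libraries. Per length, Kcnh7 was among the more abundant members in non-Tg neurons at 6.06 RPKM, near Kcnh1 at 6.85 and Kcnh5 at 6.42 RPKM, and it stood at 2.13 RPKM in PS2APP neurons. Of 28 other potassium channel genes none was called, with a median log2 fold change of 0.04 (0.02 in 9 libraries).

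**Figure D2:**
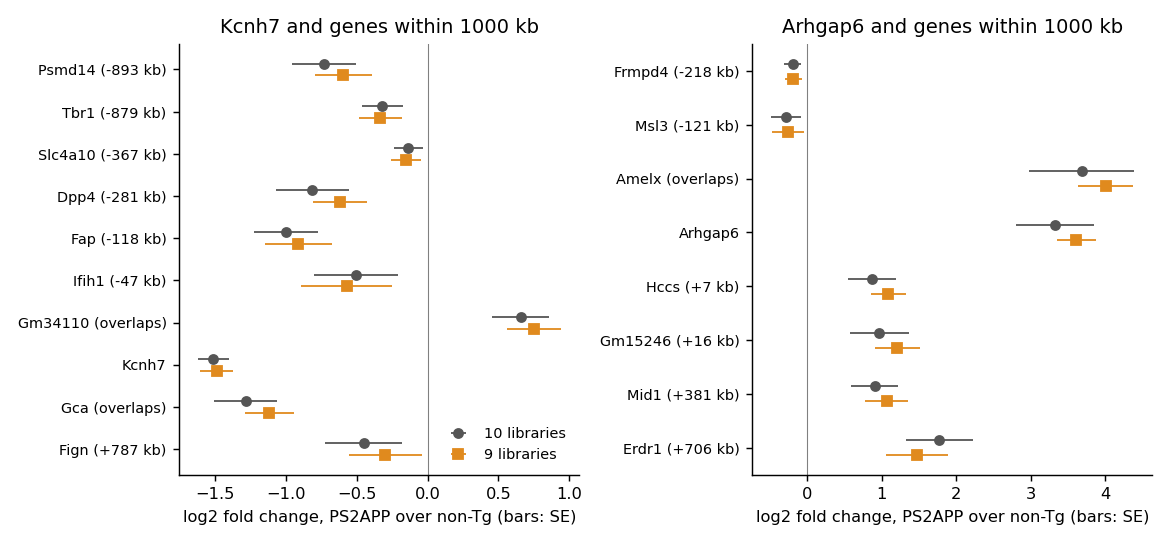
Log2 fold change of PS2APP over non-Tg NeuN+ libraries (horizontal; bars, SE) for each gene tested within 1000 kb of Kcnh7 (left) and Arhgap6 (right), ordered by distance in kb, in 10 libraries (grey circles) and 9 libraries (orange squares). Kcnh7, at -1.51 and -1.49, is the lowest of its neighbourhood, and Arhgap6 and Amelx, between 3.32 and 4.0, stand above Hccs, Gm15246, Mid1 and Erdr1.

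Arhgap6 (chromosome X, 168795094 to 169304440, GRCm38), a GTPase-activating protein, stood at 64.1, 49.4, 53.9, 53.7 and 59.8 CPM in non-Tg replicates 1 to 5. In PS2APP replicates 1 to 5 it stood at 287, 776, 888, 797 and 60.4 CPM. PS2APP replicates 1 to 4 were far above every non-Tg library, and PS2APP replicate 5 lay within the non-Tg range. Arhgap6 rose by 3.61 ± 0.26 on the log2 scale in 9 libraries (SE, edgeR adjusted p = 1.0e-05) and had 3.32 ± 0.52 in 10 libraries (edgeR adjusted p = 0.0816). With PS2APP replicate 5 kept it was called with the GC offset (edgeR adjusted p = 0.0428) and in 1 fit with all populations (edgeR adjusted p = 0.0315).

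Amelx, the gene of the enamel protein amelogenin, lies inside Arhgap6 on the opposite strand, so their reads cannot be told apart where they overlap. Amelx stood at 0.489 to 1.81 CPM in non-Tg libraries and at 8.68, 28.7, 14.4, 20.6 and 0.399 CPM in PS2APP replicates 1 to 5. Its pattern was that of Arhgap6, with PS2APP replicate 5 below the lowest non-Tg library. Amelx rose by 4.0 ± 0.37 on the log2 scale in 9 libraries (SE, edgeR adjusted p = 0.00013) and had 3.69 ± 0.70 in 10 (edgeR adjusted p = 0.162).

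The windows before the starts of Arhgap6 and Amelx are shown because the 2 transcripts rose together in the same 4 libraries. They are from RefSeq (GRCm38.p6), at chrX:168794849-168795098 (plus; the first of 3 starts listed for Arhgap6) and chrX:169187210-169187459 (minus), with the same motifs in capitals.
Arhgap6: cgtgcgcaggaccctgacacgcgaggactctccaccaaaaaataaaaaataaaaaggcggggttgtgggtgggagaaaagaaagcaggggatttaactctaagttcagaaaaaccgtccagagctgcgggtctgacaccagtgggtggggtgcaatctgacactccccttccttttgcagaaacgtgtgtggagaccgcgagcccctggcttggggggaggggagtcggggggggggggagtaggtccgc
Amelx: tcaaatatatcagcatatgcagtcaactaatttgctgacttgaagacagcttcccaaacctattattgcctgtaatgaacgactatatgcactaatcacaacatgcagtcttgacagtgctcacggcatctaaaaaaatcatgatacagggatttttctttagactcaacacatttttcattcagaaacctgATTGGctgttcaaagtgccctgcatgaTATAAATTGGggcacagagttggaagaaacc
The Arhgap6 window had 57.6% GC and 0 motif matches, and the Amelx window had 38.4% GC, 1 TATAAA match and 2 CCAAT matches, of which 1 overlaps the TATAAA match by 1 base. The windows of these genes share no motif of those searched.

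Other genes near Arhgap6 followed it in part. Of 7 tested within 1000 kb, 5 had a positive log2 fold change in both comparisons. Hccs, which attaches heme to cytochrome c, stood at 4.79, 7.43, 8.12, 6.53 and 3.75 CPM in non-Tg and at 8.91, 15.3, 13.1, 14.6 and 3.99 CPM in PS2APP replicates 1 to 5. As for Arhgap6, PS2APP replicates 1 to 4 were above every non-Tg library and PS2APP replicate 5 was not. Hccs had 1.09 ± 0.24 in 9 libraries (SE, edgeR adjusted p = 0.263), Gm15246 had 1.21 ± 0.30 and the ubiquitin ligase gene Mid1 had 1.07 ± 0.29, none called. In 9 libraries Hccs was called with the GC offset (1.36, edgeR adjusted p = 0.0497) and in DESeq2, and all 3 were called with no filter on low counts. Erdr1 differed from these: PS2APP replicate 5, at 32.3 CPM, was its highest library.

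Another 5 genes called in 9 libraries were at non-Tg levels, or below them, in PS2APP replicate 5. Gm33272 (chromosome Y, 90793687 to 90806846), a noncoding gene, stood at 5.71, 9.99, 13.1, 2.54 and 17.4 CPM in non-Tg and at 50.4, 130.2, 47.5, 192 and 2.99 CPM in PS2APP replicates 1 to 5. PS2APP replicates 1 to 4 were above every non-Tg library, and PS2APP replicate 5 was in the lower part of the non-Tg range. Gm33272 rose by 3.43 ± 0.47 on the log2 scale in 9 libraries (SE, edgeR adjusted p = 0.00485). In 1 fit with all populations it was not called (edgeR adjusted p = 0.0929), nor was 1 of the identifiers below, and 8 of the 11 genes were. The other 4 are identifiers without a symbol in the reference, such as ID102642598, which stood at 1.63 to 6.03 CPM in non-Tg libraries, 27.9 to 120.4 CPM in PS2APP replicates 1 to 4 and 0.997 CPM in replicate 5. ID102638155 was at 0 in PS2APP replicate 5 and at 5.86 to 27.3 CPM in the other PS2APP libraries. ID102638155 and 1 more identifier, both near 0 in non-Tg libraries, passed the filter in 9 libraries only through the 4 high PS2APP libraries, were not tested in 10, and were not among the 9 calls left by a filter of at least 1 CPM in 5 libraries, so their calls support nothing further.

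Thy1 and Gfap were higher in all 5 PS2APP libraries and passed the test in 9 libraries. In 10 libraries both were called with no filter on low counts, in DESeq2 and in limma-voom, but not with the GC offset. Thy1 (chromosome 9, 44043384 to 44048579, GRCm38), a membrane glycoprotein of neurons whose promoter drives the APP transgene in the published line, stood at 78.7, 148, 117, 123 and 113 CPM in non-Tg replicates 1 to 5. In PS2APP replicates 1 to 5 it stood at 323, 286, 335, 310.3 and 179 CPM. The groups did not overlap, and PS2APP replicate 5 was the lowest of the PS2APP libraries. Thy1 rose by 1.44 ± 0.15 on the log2 scale in 9 libraries (SE, edgeR adjusted p = 0.00039) and had 1.31 ± 0.19 in 10 (edgeR adjusted p = 0.0593).

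The endogenous genes that correspond to the transgenes were not called. App had 0.39 ± 0.16 in 10 libraries (log2, SE; edgeR adjusted p = 0.197) and 0.24 ± 0.13 in 9, with 557 CPM in PS2APP replicate 5 as its highest value. Psen2 had 0.34 ± 0.19 in 10 libraries (edgeR adjusted p = 0.276), 0.26 in 9, and 0.16 with the GC offset in 10. Prnp, the prion protein gene, averaged 81.8 ± 24.7 CPM in non-Tg libraries and 89.1 ± 27.7 CPM in the PS2APP group (SD, n = 5 each). How many reads of the human transgenes were counted under the mouse genes was not tested. Of 17 tested genes of the APP family and secretases none was called, and their median log2 fold change was 0.05 (0.07 in 9 libraries, -0.02 with the GC offset in 10).

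Gfap, the intermediate filament protein of astrocytes, stood at 4.60, 3.51, 5.86, 3.99 and 2.61 CPM in non-Tg replicates 1 to 5 and at 19.7, 11.3, 17.9, 11.5 and 9.57 CPM in PS2APP replicates 1 to 5. The groups did not overlap. Gfap rose by 1.89 ± 0.25 on the log2 scale in 9 libraries (SE, edgeR adjusted p = 0.00407) and had 1.78 ± 0.26 in 10 (edgeR adjusted p = 0.0593). Of the 12 tested astrocyte markers it alone was called, and 8, with Gfap among them, were positive in 10 and in 9 libraries (medians 0.25 and 0.24), such as Aldoc at 0.32 ± 0.19 (SE, 10 libraries). The summed astrocyte markers lay between 744.71 and 894.26 CPM in non-Tg libraries and between 587.2 and 910.34 CPM in the PS2APP group, and Slc1a2, an astrocyte glutamate transporter that took the largest part of that sum, had -0.45 ± 0.18 (SE). Gja1, Gjb6 and Mlc1 did not pass the filter on low counts. The part of astrocyte RNA in the Gfap value was not tested. In bulk libraries, more cells of a type and more RNA per cell cannot be told apart.

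**Figure D3:**
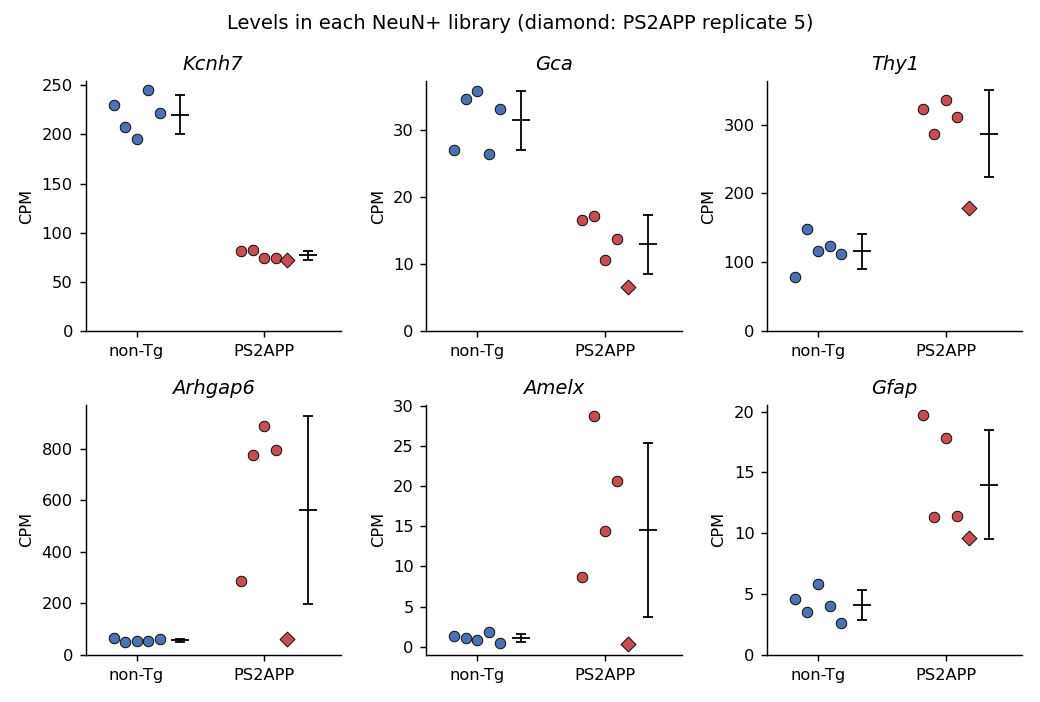
CPM (vertical, linear scale) of 6 genes in each of the 5 non-Tg (blue) and 5 PS2APP (red) NeuN+ libraries, with mean and SD beside each group and PS2APP replicate 5 as a diamond. For Kcnh7, Gca, Thy1 and Gfap the groups do not overlap, while for Arhgap6 and Amelx PS2APP replicate 5, at 60.4 and 0.399 CPM, is at the non-Tg level.

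The largest differences that did not pass, among genes with a mean log2 CPM of at least 3 and no overlap between groups, were led by a mitochondrial RNA. mt-Rnr2, the large mitochondrial ribosomal RNA, stood at 710.5, 242, 374, 519 and 453 CPM in non-Tg and at 1458, 1228, 1725, 747 and 2212 CPM in PS2APP libraries, a difference of 1.68 ± 0.30 (log2, SE; edgeR adjusted p = 0.128). PS2APP replicate 4 was close to the highest non-Tg library, and PS2APP replicate 5 was the highest of all. Ston2, an endocytic adaptor of synaptic vesicle proteins, ranged from 9.29 to 15.3 CPM in non-Tg libraries and from 18.1 to 26.2 CPM in the PS2APP group (0.89 ± 0.17, and 0.86 in 9 libraries). The kinase gene Map3k14 had 1.0 ± 0.25, Ccdc187 had 1.06 ± 0.25 and Hjurp, a centromere histone chaperone, had 0.88 ± 0.26 in 10 libraries. On the low side in 10 libraries were Tmem68 (-1.33 ± 0.31), Moap1, a modulator of apoptosis (-0.96 ± 0.21), the cyclophilin gene Ppid (-0.96 ± 0.26), Cntd1 (-0.94 ± 0.21), Snhg20 (-0.90 ± 0.22) and Gm3985 (-0.98 ± 0.23). In 9 libraries Jtb (-1.02 ± 0.24), Zfp868 (-0.88 ± 0.23) and Y-linked Eif2s3y (-0.89 ± 0.21) were among the lowest and Xist (0.99 ± 0.25) among the highest, each with an edgeR adjusted p of 0.3. With the GC offset Eif2s3y had -0.53 in 9 and -0.26 in 10 libraries, while Xist had 1.21 in 9 and 1.12 in 10.

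The gene lists of neuronal function held no call beyond those above, and each value below is a description. For all genes tested the median log2 fold change was -0.02 in 10 libraries and -0.01 in 9. At an unadjusted p under 0.05, 12.2% of all genes were higher and 10.6% lower in 10 libraries, and these shares are the background for each count.

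The subunits of the GABA-A receptor, the main receptor of fast inhibition, were mostly lower, but less so after correction for GC content. Of 12 tested, 10 had a negative log2 fold change and 8 an unadjusted p under 0.05, with a median of -0.49 in 10 libraries and -0.36 in 9. None was called. These genes had a median GC content of 44.1%, against 50.4% over all genes, and with the GC offset the median was -0.24 in 10 and -0.19 in 9 libraries. With that offset 1 of the 12, not 8, was lower at an unadjusted p under 0.05 in 10 libraries, and 1, not 6, in 9.

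Glutamate receptors and postsynaptic scaffolds were more often higher than lower, and none was called. Of 24 tested, 17 had a positive log2 fold change in 10 libraries, with a median of 0.20 (0.13 in 9). At an unadjusted p under 0.05, 10 were higher and 2 lower in 10 libraries, and 6 were higher and 2 lower in 9. Gria2, which encodes an AMPA receptor subunit, was at 2075, 2172, 2438, 2181 and 1951 CPM in non-Tg and at 1746, 1698, 1552, 1651 and 1438 CPM in PS2APP libraries. Its groups did not overlap, at -0.42 ± 0.12 (SE, edgeR adjusted p = 0.186), and Gria3 had -0.51 ± 0.15 (-0.38 and -0.43 in 9 libraries). The kinase gene Camk2b had 1.05 ± 0.33 in 10 libraries and 0.58 ± 0.20 in 9, as PS2APP replicate 5 held 2505 CPM and the next PS2APP library 1216 CPM. Gria2 and Gria3 have a GC content of 43.5% and 43.0% and Camk2b of 55.9%. With the GC offset Gria2 had -0.17 ± 0.12 (SE) and Gria3 -0.26 in 10 libraries, and 7 of the 24 were higher and 1 lower at an unadjusted p under 0.05.

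Sodium and calcium channel genes had a median of 0.25 in 10 and 0.16 in 9 libraries over 23 genes. Cacna1h, a T-type calcium channel, had 0.86 ± 0.24 in 10 libraries, 0.55 in 9, and 0.52 with the GC offset in 10, and the auxiliary subunit gene Cacna2d2 had 0.78 ± 0.18 in 10 and 0.67 in 9. Tau and microtubule genes had a median of 0.22 in 10 libraries over 22 genes, but 0.10 in 9 and 0.09 and 0.02 with the GC offset. Map6, which stabilises microtubules, had 0.56 ± 0.16 in 10 and 0.51 in 9 libraries, and 0.30 with the offset in 10, while Stmn3, which destabilises them, had -0.58 ± 0.20 in 10 and -0.50 in 9. Presynaptic release genes had a median of 0.11 in 10 and 0.10 in 9 libraries over 23 genes, with the release factor Unc13a at 0.80 ± 0.26 and 0.53 and the vesicle protein gene Sv2b at -0.68 ± 0.17 and -0.58. None of these was called, and PS2APP replicate 5 held the highest Cacna1h (443 CPM) and Unc13a (2881 CPM) and the lowest Sv2b (78.8 CPM) of all 10 libraries.

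Neuropeptides and secreted products linked to activity had a median of -0.31 in 10 and -0.27 in 9 libraries over 18 genes, 12 of them negative in 10 libraries. Nptx2, a pentraxin that clusters AMPA receptors, stood at 3.32, 12.2, 11.3, 12.7 and 9.78 CPM in non-Tg and at 6.10, 5.42, 3.99, 4.91 and 4.19 CPM in PS2APP libraries. Non-Tg replicate 1 was below all PS2APP libraries and the other 4 non-Tg libraries were above them, and the difference was -1.01 ± 0.30 (log2, SE; edgeR adjusted p = 0.186). Cck had -0.53 ± 0.17, while the secretogranin gene Scg2 had 0.42 ± 0.12 with no overlap between groups. The GC offset gave a median of -0.36 in 10 libraries. Of 18 immediate early genes, which report recent firing, none had an unadjusted p under 0.05, and their median was 0.09 in 10 and 0.03 in 9 libraries.

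Markers of neuron classes gave medians near that of all genes, at 0.04 for 17 excitatory and layer genes and -0.03 for 16 inhibitory neuron genes in 10 libraries, and at -0.07 and 0.03 in 9. The vesicular glutamate transporter gene Slc17a6 had -0.92 ± 0.23 in 10 and -0.93 in 9 libraries. Prox1, a transcription factor of dentate granule cells, had 0.58 ± 0.16 and 0.47, and Lhx6, a transcription factor of interneurons, had 0.52 ± 0.17 and 0.54, or 0.32 with the GC offset in 10 (SE, none called).

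The lists of mitochondrially encoded genes and of nuclear genes of oxidative phosphorylation had medians of opposite sign, and neither held a call. All 7 mitochondrially encoded genes that were tested, of 13 listed, were positive, the median being 0.48 in both comparisons. Of these, 4 had an unadjusted p under 0.05 in 10 libraries. ND6, a complex I subunit encoded on the opposite strand to most of the others, stood at 446, 199.5, 346, 413 and 362 CPM in non-Tg and at 759, 762, 707, 474 and 553 CPM in PS2APP libraries, with no overlap (0.88 ± 0.21, SE, edgeR adjusted p = 0.186). Of 22 nuclear genes of oxidative phosphorylation 18 were negative, with a median of -0.28 in 10 and -0.23 in 9 libraries, and 8 were lower and 1 higher at an unadjusted p under 0.05. Ndufb5 had -0.81 ± 0.24, Cox6c -0.67 ± 0.24 and Atp5a1 -0.56 ± 0.20 in 10 libraries, none called. The GC offset left the median of the nuclear genes at -0.28 in 10 libraries, with 6 lower and 0 higher at an unadjusted p under 0.05. The listed mitochondrially encoded genes had no GC value, so the offset could not be applied to them. The mitochondrial share of all counts was 1.20% ± 0.336 in non-Tg and 1.51% ± 0.268 in the PS2APP group (SD, n = 5 each; exact permutation test, two-sided, p = 0.151, or 0.397 after adjustment for 6 measures).

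**Figure D4:**
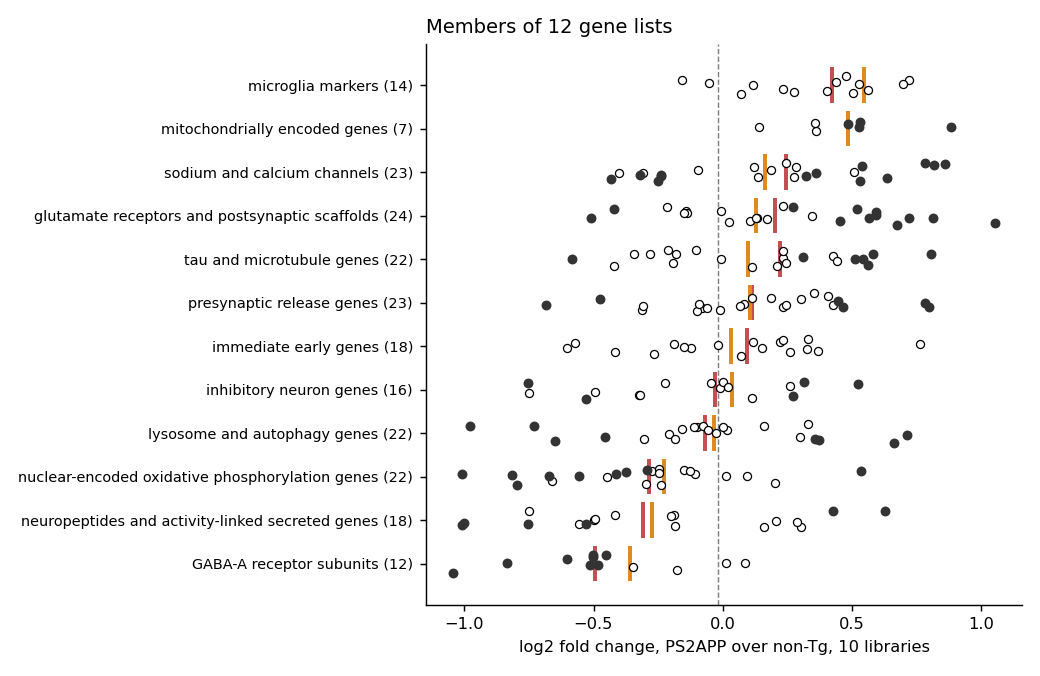
Each point is 1 gene of a list, at its log2 fold change of PS2APP over non-Tg in 10 NeuN+ libraries (filled, unadjusted p under 0.05; the number of genes tested is in parentheses). Red bars are list medians in 10 libraries, orange bars those in 9, and the dashed line is the median of all genes. The median of GABA-A receptor subunits is -0.49 (-0.24 with the GC offset, which the plot does not use), and those of mitochondrially encoded genes and microglia markers are 0.48 and 0.42.

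Markers of microglia were low but tended upward without reaching the test. Of 14 tested, 12 were positive in 10 libraries and 13 in 9, the medians being 0.42 and 0.55, and none was called. At an unadjusted p under 0.05, 0 of the 14 were higher in 10 libraries and 5 in 9, where 12.2% and 6.14% of all genes were higher. Csf1r, the receptor on which microglia depend, averaged 14.1 ± 3.32 CPM in non-Tg libraries and 20.0 ± 6.72 CPM in the PS2APP group (SD, n = 5 each). The complement gene C1qb had 0.72 ± 0.34 (SE, 10 libraries). The summed microglia markers lay between 98.687 and 143.16 CPM in non-Tg libraries and between 103.52 and 217.84 CPM in the PS2APP group (exact permutation test, two-sided, p = 0.302 and 0.452 after adjustment). Of 14 plaque-associated microglia genes tested none was called, at a median of 0.13.

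Summed oligodendrocyte markers averaged 240.3 ± 52.4 CPM in non-Tg libraries and 307 ± 41.6 CPM in the PS2APP group (SD, n = 5 each), the lowest p of the 6 measures of composition (exact permutation test, two-sided, p = 0.0556 and 0.333 after adjustment). Mbp, a myelin protein, had 0.51 ± 0.17 in 10 and 0.45 in 9 libraries, and 0.31 with the GC offset in 10 (SE). Myelin genes Mog and Mag and the lineage factors Olig1, Olig2 and Sox10 did not pass the filter on low counts. With 5 libraries against 5 the smallest p this test can give is 0.00794.

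Lysosome and autophagy, glycolysis, heat shock, cholesterol synthesis, interferon response, circadian clock, p53 target and nuclear noncoding RNA lists held no call, with medians between -0.13 and 0.13 in 10 and between -0.10 and 0.14 in 9 libraries. Members of small p in 10 libraries included the protease gene Ctsl (-0.73 ± 0.22), Gpi1 of glycolysis (0.85 ± 0.24), the chaperone gene Hsp90ab1 (0.69 ± 0.21), the sterol enzyme gene Msmo1 (-0.81 ± 0.21), the interferon genes Xaf1 (-1.39 ± 0.31) and Irf9 (0.55 ± 0.14), the clock gene Arntl (0.70 ± 0.23) and the noncoding RNA Mirg (0.76 ± 0.27).

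To ask whether these differences were particular to neurons, the PS2APP effect was compared with that in the Gfap+ and Cd11b+ libraries in 1 edgeR fit of all 30 libraries. The effect differed for 6 of 18101 genes between neurons and astrocytes (0.0331%) and for 19 between neurons and myeloid cells (0.105%), and Kcnh7, Arhgap6, Thy1 and Gfap were not among them. Kcnh7 had -1.50 ± 0.25 in neurons, -0.88 ± 0.28 in astrocytes and -1.04 ± 0.33 in myeloid cells (log2 fold change, SE), with a difference of -0.63 ± 0.37 between neurons and astrocytes (edgeR adjusted p = 0.9999) and of -0.47 ± 0.42 between neurons and myeloid cells (edgeR adjusted p = 0.768). The falls in astrocytes and in myeloid cells were not called (edgeR adjusted p = 0.0876 and 0.0567). The level of Kcnh7 differed by population: on the scale of all 30 libraries non-Tg neurons held 183 ± 16.3 CPM, non-Tg astrocytes 18.0 ± 2.72 and non-Tg myeloid cells 8.92 ± 4.30 CPM (SD, n = 5 each). On that scale the sort marker Rbfox3 stood at 88.6 to 156 CPM in non-Tg neurons. It stood at 4.79 to 19.0 CPM in non-Tg astrocytes and at 6.42 to 8.05 CPM in non-Tg myeloid cells. The part of neuronal RNA in the Gfap+ and Cd11b+ values of Kcnh7 was not tested.

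Arhgap6 had 3.34 ± 0.64 in neurons, 3.88 ± 0.69 in astrocytes and 5.78 ± 0.75 in myeloid cells (log2 fold change, SE), and the differences were not called (edgeR adjusted p = 0.9999 and 0.351). In each population 1 of the 5 PS2APP libraries lay at or near the non-Tg level of Arhgap6. On the scale of 30 libraries it was at 50.97 CPM in neurons, 4.07 in astrocytes and 10.1 in myeloid cells, while the other 4 PS2APP libraries were at 239 to 755 CPM in neurons, 83.0 to 242 in astrocytes and 329 to 588 in myeloid cells. In astrocytes and myeloid cells that library was also the lowest PS2APP library for Gm33272, at 1.02 and 0.597 CPM, as PS2APP replicate 5 was in neurons. The labels do not say whether these 3 libraries share an animal. The genes with a different effect included Ly9, a leukocyte surface receptor, against astrocytes. Against myeloid cells they included Gpnmb and Cst7, which microglia induce around plaques. Each had a more positive effect outside neurons. Ly9 averaged 58.7 CPM in non-Tg Cd11b+ and 3.13 CPM in PS2APP Gfap+ libraries, and the part of myeloid RNA in the Gfap+ value was not tested.

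**Figure D5:**
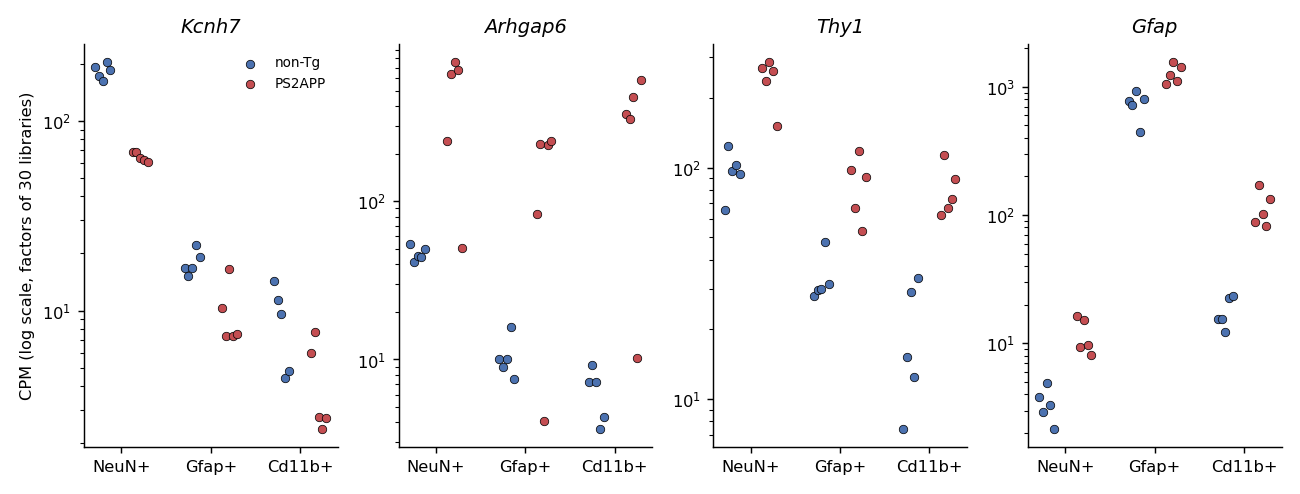
CPM (vertical, log scale, factors of all 30 libraries) of Kcnh7, Arhgap6, Thy1 and Gfap in each of 5 non-Tg (blue) and 5 PS2APP (red) libraries of NeuN+, Gfap+ and Cd11b+ cells. For Arhgap6, 1 PS2APP library in each population lies at or near the non-Tg libraries, at 50.97, 4.07 and 10.1 CPM.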

How the data were processed

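Total RNA of sorted cells was sequenced, with 1 table per library. Per the file headers, the deposited count holds uniquely aligned reads per gene model, and the deposited RPKM carries a size-factor adjustment. GSNAP and the build GRCm38 are given in the submitters' processing notes, whereas annotation and strand setting were not given in the sources used here. In a comparison of 2 neuron libraries the RPKM values were counts times 1 factor over gene length (largest relative deviation 8.7e-15 over 6978 genes). Counts were used in every test, and RPKM for levels between genes.

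RefSeq's GRCm38.p6 table named 31049 of 36528 identifiers, which held 97.3% of neuron counts. Groups were taken from the source labels, and replicate numbers were given in accession order and pair nothing. The genotypes were compared with the quasi-likelihood test of edgeR 4.0.16 under R 4.3.3, after filterByExpr (minimum count 10) and TMM scaling. Its p-values were Benjamini-Hochberg adjusted over all genes tested. The code was also run on simulated counts, drawn gene by gene without a GC trend, which does not test the calls in these libraries. The comparison was repeated without the PS2APP library with the most extreme score on the first principal component (log2 CPM, prior count 2). For 6 measures of composition, exact permutation tests (two-sided, scipy 1.17.1) were used. GC content was the median over GENCODE M21 transcripts read with Biostrings 2.70.1. Alternatives used DESeq2 1.42.0, limma 3.58.1, other filters and scalings, and left out each library in turn; the GC settings and the fit of 29 libraries were chosen after seeing the data.

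The members and the 31 gene lists were chosen with earlier results of these data known. Named genes were a fixed set (the sort markers, transgene-related genes, ERG channels, Arhgap6 and Gfap), every called gene, per comparison the largest differences (at most 8 in each direction) with unadjusted p under 0.01, mean log2 CPM of at least 3 and no overlap, and up to 3 members per list of smallest p in the 9-library fit; neighbours were taken by position, and other list members named were chosen after their values were seen. Some single genes of these lists are not reported here.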

Additional observations from a re-analysis of the deposited data

Results flagged for a closer look

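For 230 groups of 5 libraries (named genes and composition measures) the gap between the highest or lowest library and its nearest neighbour was compared with Dixon's critical value, and 13 exceeded it, where chance gives about 1 in 20. In PS2APP replicate 5 these were Bhlhe40 at 121 CPM (next 73.5), Camk2b at 2505 CPM (next 1216), Map3k14 at 34.7 CPM (next 21.8) and Scg2 at 229.8 CPM (next 186). In non-Tg replicate 1 they were Hsph1 at 310.0 CPM (next 143) on the high side and Cck at 28.6 CPM (next 40.4), Slc2a3 at 30.4 CPM (next 50.9) and Sv2b at 119 CPM (next 188) on the low side. In PS2APP replicate 4 they were Lhx6 at 11.1 CPM (next 9.18) and S1pr3 at 8.18 CPM (next 4.99). In PS2APP replicate 1 they were Msmo1 at 8.68 CPM (next 6.78) and the mitochondrial share of counts at 1.98% (next 1.47%). Trp53inp1 stood at 12.4 CPM in non-Tg replicate 3 (next 7.74).

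The PS2APP effect differed between populations by edgeR's test of the difference for 3 genes of smallest p against astrocytes and 3 against myeloid cells. As log2 differences, neuron minus astrocyte, these were -2.58 ± 0.42 for Abi3, -2.45 ± 0.43 for Myo1f and -7.05 ± 1.26 for Ly9 (SE). Ly9 was at 0 counts in all 5 non-Tg Gfap+ libraries, so its fitted value depends on the prior count and is no bound. On the scale of 30 libraries Abi3 averaged 1477 CPM in non-Tg Cd11b+, 4.66 in non-Tg Gfap+ and 35.5 CPM in PS2APP Gfap+ libraries. Myo1f averaged 422, 1.61 and 9.99 CPM in the same 3 groups, and Ly9 58.7, 0 and 3.13 CPM. The part of myeloid RNA in these Gfap+ values was not tested. Neuron minus myeloid, the log2 differences were -6.04 ± 0.65 for Gpnmb, -4.98 ± 0.57 for Cst7 and -2.51 ± 0.36 for Etl4 (SE). The neuron effects of these genes were not called.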

How the results depend on the processing

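The fall of Kcnh7 was called under every setting run in both comparisons, at -1.56 to -1.47 on the log2 scale over leave-one-out fits of 10 libraries and -1.53 to -1.45 in 9. In 10 libraries the count of 1 became 15 with no filter (12 higher, 3 lower), 153 in DESeq2 (66 higher, 87 lower), 15 in limma-voom with quality weights, 5 with all populations in 1 fit, 2 with the GC offset, and 1 to 11 over leave-one-out fits. In 9 libraries the count of 11 became 37 with no filter, 47 in DESeq2 (26 higher, 21 lower), 26 in limma-voom, 8 with all populations in 1 fit, 6 among genes with a GC value (fewer genes tested), 7 with the GC offset, and 10 to 379 over leave-one-out fits; all 11 genes remained among the 379 and the 47. The causes were not tested. Without PS2APP replicate 5 the genes differing between neurons and astrocytes went from 6 to 3. With the GC offset the sign reversed for Ccng1 (0.0239 and 0.0125), Kcnh6 (-0.125 and -0.0918), Meg3 (-0.131 and -0.0448) and Slc4a10 (0.192 and 0.0659) in 10 and 9 libraries and for Frmpd4 (0.0295) in 10. Prnp reversed without non-Tg replicate 1 (-0.0423; 0.299 without PS2APP replicate 5), and Kcnh6 in 9 libraries without non-Tg replicate 4 (-0.0656), PS2APP replicate 1 (-0.0469) or PS2APP replicate 4 (-0.119), with 0.187 as its highest value (without PS2APP replicate 2). Composition over leave-one-out fits and raw-count shares gave no adjusted p under 0.143. Leave-one-out differences (PS2APP minus non-Tg) were -540300 to 147600 counts in total and 0.173 to 0.392 percentage points in the mitochondrial share. In summed CPM they were -126.7 to -45.9 (astrocyte), 8.08 to 36.7 (microglia), 50.2 to 85.5 (oligodendrocyte) and -1.26 to 1.42 (endothelial and mural). A sex term was not run, and Y-linked counts in all 10 libraries do not show the sex of each. Of 5 sex-linked genes tested, 3 were lower and 1 higher at an unadjusted p under 0.05 in 10 libraries. With the GC offset 0 were lower and 1 higher. Whether sex differed between the groups was not tested. No paired analysis was possible because replicate numbers were given in accession order. Genes near 3 counts (0.405 to 0.707 CPM) are limited by depth.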
